A study of Zea mays with 4 samples.

Results

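The polysome-bound RNA of rea1 mutant endosperm was set against that of wild-type endosperm, both taken from maize (Zea mays) kernels at 15 days after pollination. These are 2 of the 4 libraries of the study. The other 2 hold total RNA of the same genotypes. They are used here only beside a polysome result, to class or pick loci, and in the filter on low values. The members were all 29642 loci that each file lists, matched by row and position, and no measured value chose them. Each genotype had 1 polysome library, the RNA that pelleted through a sucrose cushion. The design text speaks of triplicates, but each file holds 1 value per locus, so no difference has a replicate check and no test was possible. The words higher and lower describe this pair of libraries. The labels do not say which gene is mutated in rea1, in which background, or how many kernels were pooled.

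Endosperm is the tissue of the cereal kernel that stores starch and protein. In the filling kernel a few gene families for storage proteins, many with near-identical copies in tandem, make up much of the messenger RNA. Polysomes are messenger RNAs that carry several ribosomes, and RNA recovered with them is commonly read as the part being translated. In yeast, the protein called Rea1 (midasin) is an AAA ATPase that strips assembly factors from the maturing large ribosomal subunit. The files pair no gene name with a position, so loci are given by position on B73 RefGen_v3, with starts counted from 1. The endosperm label could not be checked against marker genes for the same reason, and no role is given to any single locus.

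Levels are FPKM, that is, fragment numbers divided by transcript length and by the mapped fragments of the library, so each is a share of its library. Ratios are rea1 over wild type on the log2(FPKM + 1) scale, and adding 1 shrinks the ratios of low loci. Calls of at least 2-fold or 4-fold use these ratios. Fold values printed for single loci divide the FPKM values without adding 1. At low levels they are thus larger than the log2 ratios give, and they can rank loci in another order. The polysome libraries summed to 846544 FPKM (rea1) and 895922 FPKM (wild type), with 25886 and 25467 loci above 0. Every listed locus was above 0 in at least 1 of the 4 libraries, and 2301 were listed at 0 in both polysome libraries. Read totals are not given. Among 2990 loci under 0.3 FPKM in both polysome libraries, the most common ratio step, between -0.1 and 0 (log2), held 8.09% of them. No clear step in depth between the libraries could be read from that, so depth, and with it the counting error of any value, is unknown. In RNA from whole tissue, fewer cells of a type and less RNA per cell cannot be told apart.

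Polysome-bound RNA was less concentrated in a few loci in rea1 than in wild type. The fewest loci that together held 50% of the summed FPKM numbered 18 in wild type and 79 in rea1. The top 100 loci by FPKM made up 64.9% of the wild-type and 52.0% of the rea1 library, and the top 1000 made up 80.6% and 74.2%. The share of the 50 most abundant loci, rea1 minus wild type, differed by -14.96 percentage points, and by -14.93 when entries that share coordinates were left out.

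**Figure D1:**
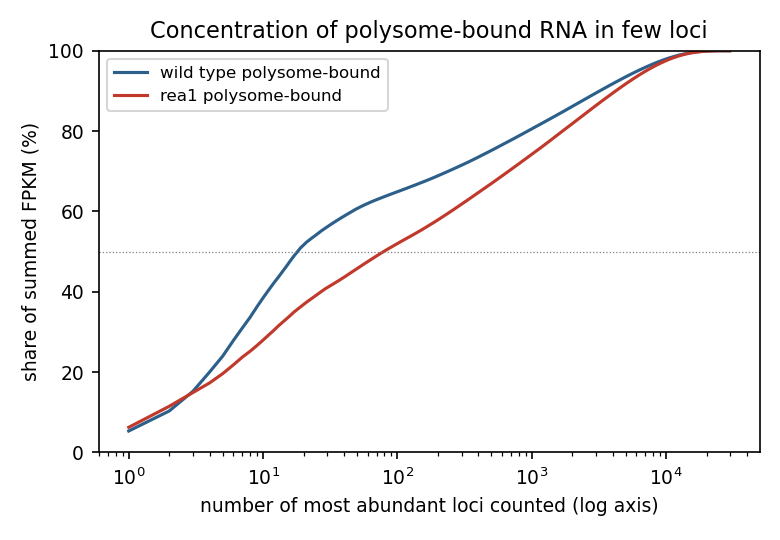
Share of the summed FPKM (vertical axis, %) held by the most abundant loci of each polysome library, counted from the most abundant on (horizontal log axis), with 50% dotted. Wild type reaches 50% with 18 loci and rea1 with 79.

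The lower values in rea1 sat in few loci and the higher values in many. Summed over the 9721 loci with less FPKM in rea1, the difference was 212674 FPKM, and 7 loci held more than 50% of it. The 20 largest differences of this kind held 83.4% of it, with sums of 372392 FPKM (wild type) and 194939 FPKM (rea1). Summed over the 17620 loci with more FPKM in rea1, the difference was 163296 FPKM. There the 20 largest held 23.3%, and 210 loci were needed for more than 50%. FPKM is relative, so a smaller share of the most abundant loci can raise the values of the others by itself.

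The 20 loci that lost most FPKM were mostly short and on chromosome 4. Of these, 14 lay on chromosome 4, 3 on chromosome 7, 2 on chromosome 1 and 1 on chromosome 6. Of the 17682 loci averaging 1 FPKM or more over the 4 libraries, 1781 lay on chromosome 4. The median length of the 20 was 1076 bp, and 19 of the 20 were under 2400 bp. The median over those 17682 loci was 3989 bp. Ranking by FPKM difference favours abundant loci, and of the 76 loci at 1000 FPKM or more in total RNA, 46 were 600 to 2400 bp long. None of the 20 shared its coordinates with another entry. At least 2-fold lower were 12 of the 20, and the others less, down to a log2 ratio of -0.26. In total RNA 19 of the 20 were lower in rea1 as well, where 15.1% of those 17682 loci were. The other one, chr7:120233940-120236057, had 28979 FPKM on rea1 polysomes and 34692 on wild-type polysomes. In total RNA it had 31354 FPKM in rea1, while wild type listed it at 0. An exact 0 can be a failed estimate, so no direction in total RNA is read from this locus.

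The 4 largest differences among them were all on chromosome 4. The locus chr4:21334901-21335970 had 18398 FPKM on rea1 polysomes and 43299 on wild-type polysomes, a 2.35-fold difference. In total RNA the same locus was at 5166 and 52408 FPKM, 10.1-fold lower in rea1. The locus chr4:5535743-5536690 had 20425 and 44592 FPKM on polysomes, 2.18-fold lower in rea1, and 8.35-fold lower in total RNA. These were among the most abundant loci of wild type in both RNA fractions, and in each the gap between the genotypes was wider in total than in polysome-bound RNA. The locus chr4:29951761-29952727 had 16343 and 35275 FPKM on polysomes (2.16-fold) and was 6.51-fold lower in total RNA. Its near neighbour chr4:29963321-29964591 had 12440 and 23918 FPKM (1.92-fold, so under 2-fold) and was 6.52-fold lower in total RNA. Where copies of a gene family share reads, the value of a single locus is uncertain.

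The 20 loci that gained most FPKM were spread more widely. Of these 5 lay on chromosome 6, 4 each on chromosomes 5 and 9, 3 on chromosome 3, 2 on chromosome 8 and 1 each on chromosomes 1 and 4. Their median length was 2280 bp, and 10 of the 20 were at least 2-fold higher. The largest gain was at chr6:121573176-121574010, where rea1 had 9545 FPKM and wild type 2975 FPKM (3.21-fold). In total RNA this locus was 1.94-fold higher, at 2315 and 1192 FPKM. The locus chr6:44541825-44542774 was the most abundant of both polysome libraries, with 52920 (rea1) and 47790 FPKM (wild type). Its gain of 5131 FPKM was a ratio of only 1.11, and with median-of-ratios scaling its log2 ratio turned from 0.15 to -0.16. In total RNA it had 19894 and 38973 FPKM in that order. The locus chr1:197301249-197304338 was 1.84-fold higher on polysomes (9581 and 5218 FPKM) and 1.47-fold higher in total RNA. The locus chr6:40050689-40052652 was 1.87-fold higher on polysomes (5731 and 3067 FPKM) but lower in rea1 total RNA, at 3195 and 3847 FPKM.

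Loci averaging 1 FPKM or more over the 4 libraries numbered 17682 and are called tested loci here. Across them the polysome levels of the genotypes stayed close. The log2 ratio had a median of 0.24, a 1.18-fold higher value in rea1, and its middle 50% of loci lay between -0.04 and 0.51. In total RNA the median was 0.62, with the middle 50% between 0.24 and 1.03, so the width of that range was 0.54 in polysome-bound and 0.79 in total RNA. Of the tested loci, 72.0% had a polysome log2 ratio above 0. A polysome level 2-fold or more higher in rea1 was found at 701 loci (3.96%), and one 2-fold or more lower at 237 (1.34%). In total RNA the same counts were 4647 (26.3%) and 338 (1.91%), as deposited and with the median of 0.62 left in. No count for total RNA was made with another scaling.

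The split of higher against lower polysome loci turned with the scaling. Median-of-ratios scaling multiplies rea1 by 0.899 and wild type by 1.11 and puts the median ratio at 0. It gave 317 higher loci (1.79%) and 447 lower loci (2.53%). As deposited, at least 4-fold higher were 61 loci (0.345%) and at least 4-fold lower 24 (0.136%). Of these, 18 and 9 were listed at 0 in 1 of the polysome libraries. Leaving out such loci and those that share coordinates left 40 higher and 14 lower.

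**Figure D2:**
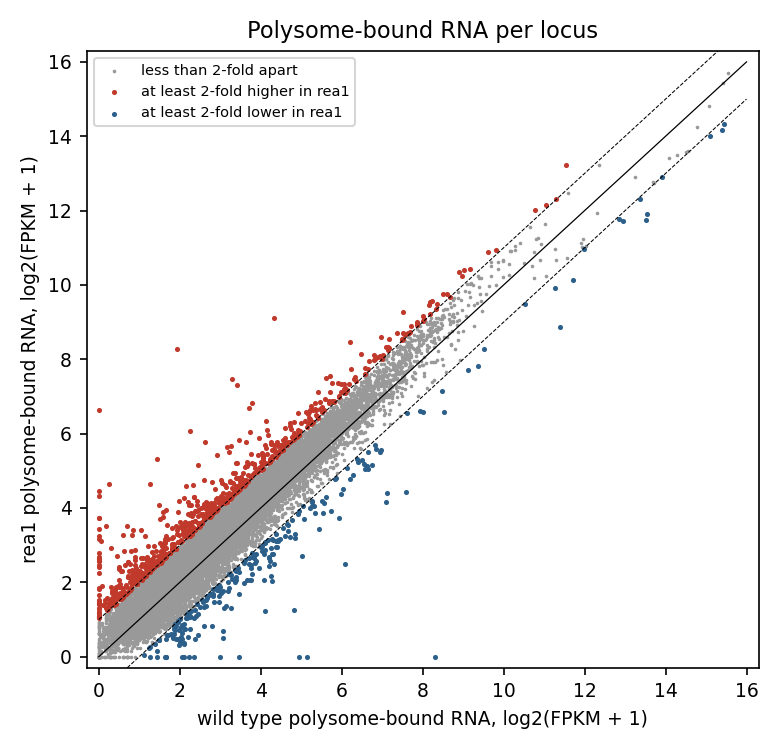
Polysome-bound RNA of the 17682 tested loci, 1 point per locus, as log2(FPKM + 1) in wild type (horizontal) and rea1 (vertical), with the line of equal values and dashed lines at 2-fold. Most points lie between the dashed lines, 701 lie above and 237 below, and the points marked as lower at the top right are abundant loci.

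The most abundant loci differed most often, and in both directions. Loci were classed by their mean level in total RNA, from libraries that the polysome ratio does not use, though the filter for tested loci does use the polysome libraries. Those at 1000 FPKM or more numbered 76. On polysomes their sum was 547712 FPKM for wild type and 409238 FPKM for rea1, which was 61.1% and 48.3% of the library. Of the 76, 11 (14.5%) were lower by 2-fold or more and 8 (10.5%) were higher by as much. The next class, 883 loci at 100 to 1000 FPKM, went from 17.9% to 24.3% of the library, and 84 of its loci (9.51%) were at least 2-fold higher and 16 (1.81%) lower. The 6932 loci at 10 to 100 FPKM went from 16.98% to 22.6%, and the 10324 loci at 1 to 10 FPKM from 3.63% to 4.40%. Of tested loci at 10 to 100 FPKM, 4.80% were at least 2-fold higher and 1.04% lower. At 1 to 10 FPKM these shares were 2.74% and 1.16%, and under 1 FPKM they were 5.04% and 8.31%. Adding 1 shrinks the ratios of low loci, which holds down the shares of the low classes. Loci under 1 FPKM in total RNA were tested only where their polysome values were high enough. Their shares were thus picked on the values in the ratio and cannot be compared with those of the other classes.

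The median log2 ratio was -0.10 for tested loci under 1 FPKM in total RNA, 0.16 at 1 to 10, 0.35 at 10 to 100 and 0.44 at 100 to 1000. Over the 76 most abundant loci it was 0.14, with the middle 50% of loci from -0.81 to 0.75, the widest of the 5 classes. After subtracting the median over all tested loci, these medians were -0.35, -0.09, 0.11, 0.19 and -0.10. With a pseudocount of 1 the low classes are pulled towards 0. Of the 11427 loci under 1 FPKM in total RNA, only 337 were tested loci. They reached a mean of 1 FPKM over the 4 libraries only through their polysome values. That class was thus picked on the values in its ratio, so the step from -0.10 to 0.16 cannot be read as a trend with abundance.

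Among the 76 loci the shorter ones were more often lower, with an exception in the longest. The 46 that were 600 to 2400 bp long had a median log2 ratio of -0.45, with 10 at least 2-fold lower and 4 higher. Their sums were 487298 FPKM (wild type) and 340291 FPKM (rea1). The 26 loci of 2400 to 9600 bp had a median of 0.72, with 4 at least 2-fold higher and 1 lower, and sums of 33643 FPKM (wild type) and 52359 FPKM (rea1). With the median over all tested loci subtracted, these medians were -0.69 and 0.48, still of opposite sign. The last 4 of the 76, of 9600 bp or more, did not follow that order: their median was 0.27, or 0.02 after subtraction, and their sums were 26771 FPKM (wild type) and 16587 FPKM (rea1). Of these 4, 3 had a log2 ratio above 0. The remaining one, chr4:5548772-5561370, had 23423 FPKM (wild type) and 12154 FPKM (rea1), so the lower rea1 sum rests on that 1 locus. The 8 abundant loci that were at least 2-fold higher included chr4:58979526-58985686, with 4119 (rea1) and 1737 FPKM (wild type). Another was chr9:11500926-11507687, at 4515 and 2131 FPKM. In total RNA these were at 1328 and 953 FPKM and at 3260 and 2854 FPKM, so they were under 2-fold apart there. That held for 4 of the 8, and the other 4 were at least 2-fold higher in total RNA too, as 26.3% of all tested loci were. All 11 abundant loci lower on polysomes were at least 2-fold lower in total RNA, as 1.91% of all tested loci were. Both examples were picked after their values were seen.

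Over all tested loci, short loci had a wider spread of ratios than long ones. Lengths run from locus start to end and so contain introns. The range holding the central 90% of loci was 2.86 (log2) for the 388 loci under 600 bp, 2.13 for the 1366 of 600 to 1200 bp and 1.15 for the 1753 of 9600 to 20000 bp. Of the loci under 600 bp, 11.6% were higher by 2-fold or more and 8.51% lower. Among the 4623 loci of 4800 to 9600 bp those shares were 3.20% and 0.346%. The lower loci were shorter than the higher loci, with median lengths of 1259 and 3018 bp, against 3989 bp for all tested loci. The spread was wider for short loci also at like abundance. Among loci at 10 to 100 FPKM in total RNA it was 3.33 for the 129 under 600 bp and 1.12 for the 1076 of 9600 bp or more. A short transcript yields fewer fragments at the same FPKM, and whether that set these shares was not tested.

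**Figure D3:**
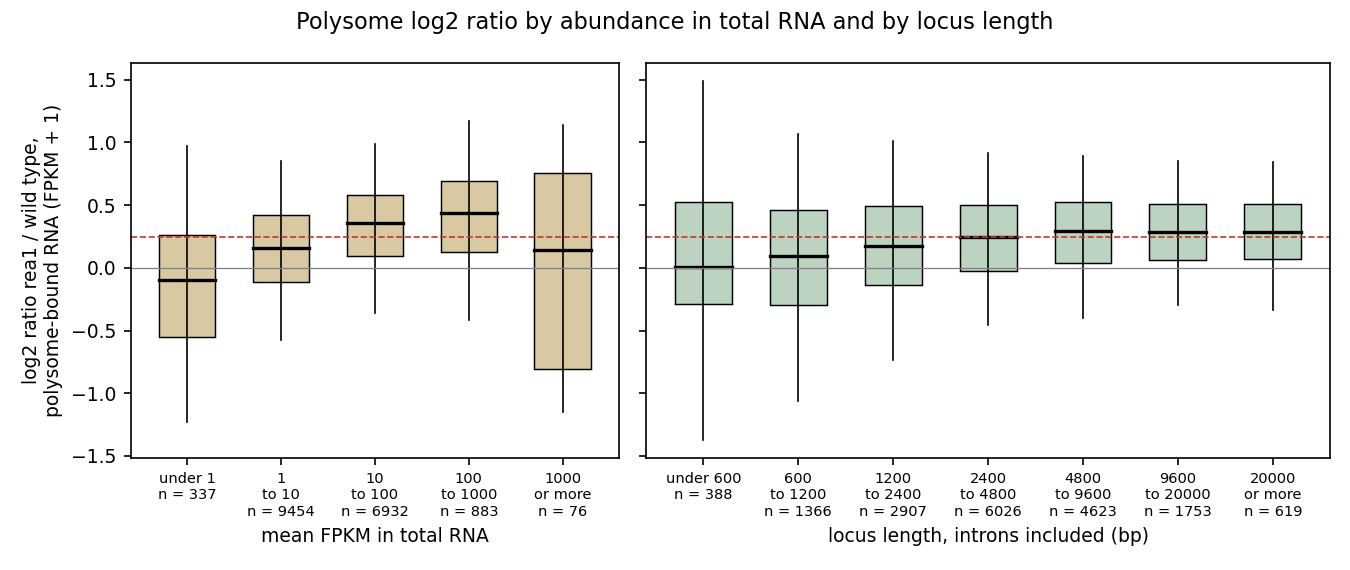
Polysome log2 ratio of rea1 over wild type by mean FPKM in total RNA (left) and by locus length (right): the thick line is the median, the box the middle 50% and the thin line the central 90% of tested loci, not an error. The red dashed line is the median of all tested loci (0.24). The medians climb from -0.10 to 0.44 over the first 4 abundance classes, the most abundant class spans both signs, and the spread narrows from the shortest loci to those of 9600 to 20000 bp. Loci under 1 FPKM in total RNA are tested only where their polysome mean exceeds 1 FPKM, so the lowest class is picked on polysome values.

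The shift was alike on all chromosomes. The median log2 ratio ran from 0.22 on chromosome 8 to 0.26 on chromosomes 4 and 5. The share of loci at least 2-fold higher ran from 3.20% on chromosome 5 to 5.50% on chromosome 6, and of those at least 2-fold lower from 0.755% on chromosome 10 to 1.79% on chromosome 6. In 199 windows of 10 Mb with at least 20 tested loci, window medians lay between 0.05 and 0.41, all above 0 as deposited. A median window had 3.70% of its loci higher and 1.04% lower.

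A few windows stood apart. In the first 10 Mb of chromosome 4, 11 of 110 tested loci (10%) were at least 2-fold lower, and 9 of these 11 started between 5 and 6 Mb. The 11 loci had between 16.2 and 44592 FPKM on wild-type polysomes, and 9 of the 11 were at least 2-fold lower in total RNA too. In total RNA 20 of the 110 loci (18.2%) were at least 2-fold lower, where 1.91% of all tested loci were. The window thus held more lower loci in total RNA than on polysomes. The median polysome log2 ratio over all 110 loci of that window was 0.17. Between 30 and 40 Mb of chromosome 6, 4 of 50 loci (8.00%) were lower, and between 50 and 60 Mb of chromosome 8, 3 of 22 (13.6%). The highest share of higher loci was in the window of 100 to 110 Mb on chromosome 2, with 6 of 32 (18.8%). These windows were picked after their values were seen, and those with few loci have shares that rest on few calls.

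Single loci reached much larger ratios than the abundant ones. Considered were 9379 loci with their own coordinates, 5 FPKM or more on average on polysomes, and values above 0 in both polysome libraries. Among them the 6 highest log2 ratios ran from 3.38 to 6.33. The highest was chr3:201981099-201981984, with 307 FPKM (rea1) and 2.84 FPKM (wild type), a 108-fold difference. It was at 1253 and 3.69 FPKM in total RNA, 340-fold apart. The second, chr7:157638031-157641018, had 550 and 19.1 FPKM (28.7-fold), and at 1135 and 23.8 FPKM in total RNA. Neither exceeded 23.8 FPKM in a wild-type library, and both had 307 FPKM or more in each rea1 library.

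Of these 6 loci, 3 lay in the last stretch of chromosome 7 from 150 Mb on, a stretch picked after the values were seen. In its windows of 150 to 160, 160 to 170 and 170 to 180 Mb, 3.57%, 3.28% and 2.80% of tested loci were at least 2-fold higher. Of all tested loci 3.96% were, so higher loci as a whole were not more frequent there. The locus chr7:164603766-164605241 had 23.8 and 0.185 FPKM on polysomes, with a log2 ratio of 4.39, and at 57.8 and 0.293 FPKM in total RNA. The locus chr7:150307605-150310106 was at 23.8 and 1.39 FPKM on polysomes (17.1-fold), and at 217 and 0.943 FPKM in total RNA (230-fold). That locus had a log2 ratio of 6.81 in total RNA and 3.38 on polysomes, a wider gap between the fractions than the 5.51 and 4.39 of the locus at 164.6 Mb.

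The other 2 were further apart on polysomes than in total RNA. The locus chr8:154976915-154978364 had 176 and 8.72 FPKM on polysomes (20.2-fold), and at 80.2 and 19.7 FPKM in total RNA (4.07-fold). The locus chr5:186556056-186557725 was at 38.6 and 1.72 FPKM (22.5-fold), and at 5.21 and 1.15 FPKM in total RNA (4.52-fold). All 6 were at least 2-fold higher in total RNA as well, as 26.3% of all tested loci were. The next locus in the polysome ranking had a log2 ratio of 3.34.

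The 6 lowest log2 ratios ran from -3.60 to -2.71. The locus chr3:23898039-23899690 had 4.60 FPKM (rea1) and 66.98 FPKM (wild type), 14.6-fold apart. In total RNA it was at 0.116 and 3.50 FPKM, so its level was higher on polysomes than in total RNA in each genotype. The locus chr5:208689492-208691178 was at 1.37 and 27.4 FPKM (19.99-fold) on polysomes and at 1.35 and 21.7 FPKM in total RNA. The locus chr8:132250530-132252119 was 9.19-fold lower on polysomes and 61.9-fold lower in total RNA. It had 20.7 and 190 FPKM on polysomes and 3.54 and 219 FPKM in total RNA. Total and polysome-bound RNA thus went the same way at these 3 loci.

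The remaining 3 of the lowest were short. The locus chr6:140536934-140537348, 415 bp long, had 16.8 and 134 FPKM on polysomes (8.03-fold), and 7.49-fold lower in total RNA. The locus chr5:95019261-95019572, 312 bp, was at 1.34 and 16.2 FPKM (12.1-fold); in total RNA rea1 listed it at 0, and wild type had 1.04 FPKM. The locus chr3:218853868-218854053, 186 bp, was at 20.3 and 139 FPKM (6.84-fold lower), while in total RNA it was 5.59-fold higher in rea1, at 184 and 32.9 FPKM. It was the only one of the 12 whose fractions went opposite ways.

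**Figure D4:**
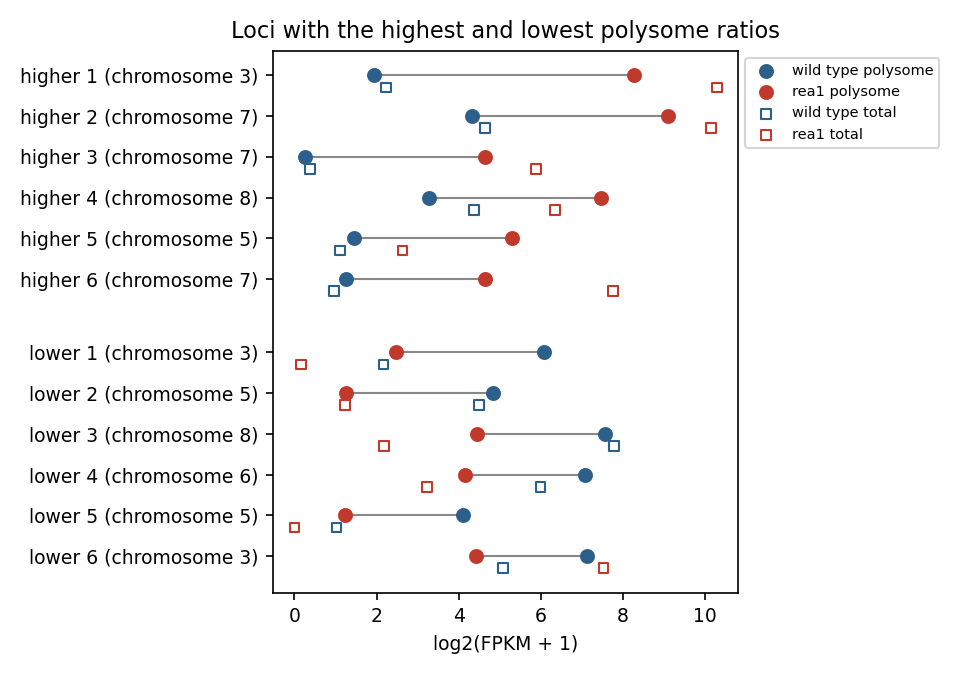
Levels as log2(FPKM + 1) of the 6 loci with the highest and the 6 with the lowest polysome ratio, in rank order; filled circles are polysome-bound RNA, joined by a line, and open squares total RNA, with 1 library per point. In 11 of the 12 the rea1 and wild-type squares lie in the same order as the circles, and in the last one (lower 6, chromosome 3) the order is turned.

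Loci beside these 12 mostly did not share their ratios. The nearest tested locus on each side gave 24 flanking loci, with log2 ratios from -1.96 to 0.81 and a median of 0.34. None of the 24 was at least 2-fold higher and 3 were at least 2-fold lower, where 3.96% and 1.34% of all tested loci were. The lower flanks chr5:208724193-208725137 (log2 ratio of -1.12) and chr6:140501700-140502699 (-1.67) each stood beside a lower named locus and shared its direction. In total RNA their log2 ratios were -0.44 and 0.15. The lowest flank, chr7:164496101-164496944, had 94.1 (rea1) and 368 FPKM (wild type) and lay 106821 bp before the locus at 164.6 Mb that was higher in rea1. So a higher and a lower locus stood next to each other among the tested loci there, in total RNA too (log2 ratios of -2.33 and 5.51). No entry of the files overlapped any of the 27 loci that the naming rule took.

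Of the 912 loci that averaged 100 FPKM or more in total RNA and were above 0 in both polysome libraries, the 3 highest polysome ratios belonged to the chromosome 3 locus at 201.98 Mb and the chromosome 7 loci at 157.6 and 150.3 Mb described above. The 3 lowest were the chromosome 8 locus at 132.25 Mb, the 186 bp locus on chromosome 3, and chr6:39087615-39088302. That chromosome 6 locus had 463 and 2671 FPKM on polysomes (5.78-fold lower in rea1), and at 209 and 3615 FPKM in total RNA (17.3-fold lower). It lies in the chromosome 6 window with 4 lower loci.

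Many low loci were listed at 0 in 1 of the polysome libraries. With their own coordinates, 1780 were listed at 0 in wild type and above 0 in rea1, with a median of 0.0890 FPKM in rea1. The other way round there were 1397, with a median of 0.0888 FPKM in wild type. Only 49 and 19 of them reached 1 FPKM in the other library, and 35 of the 49 and 13 of the 19 were under 600 bp. Total RNA of the same genotype also listed 23 of the 49 and 8 of the 19 at 0. An exact 0 can be a failed estimate, and no fold is given against it.

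The highest of those listed at 0 in wild-type polysome-bound RNA was chr2:198478457-198479148, at 98.5 FPKM in rea1. Wild-type total RNA listed it at 0 too, and rea1 total RNA had 284 FPKM. Next came chr8:171154894-171155088, at 20.9 FPKM, and chr3:140866358-140869702, at 19.1 FPKM. In wild-type total RNA these were at 20.5 and 35.5 FPKM, so wild type had values for them in total RNA alone. Of those listed at 0 in rea1 polysome-bound RNA, the highest were chr9:151106512-151106712 at 29.7 FPKM, chr4:23376819-23377046 at 9.94 FPKM and chr1:194835059-194835865 at 6.91 FPKM in wild type. In rea1 total RNA the first was at 22.1 FPKM, the second at 3.04 FPKM, and the third was listed at 0.

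Polysome ratios went with the total RNA ratios of the same loci, over a narrower range. The 2 comparisons share no library, though both RNA fractions of a genotype may come from one tissue sample. The 80 loci with a total log2 ratio below -2 had a median polysome log2 ratio of -0.81. Of them 34 (42.5%) were at least 2-fold lower on polysomes, where 1.34% of all tested loci were. The 258 loci between -2 and -1 in total RNA had a polysome median of -0.43, with 50 (19.4%) at least 2-fold lower. At the other end, the 4053 loci between 1 and 2 had a polysome median of 0.44. Of them 304 (7.50%) were at least 2-fold higher on polysomes, where 3.96% of all tested loci were. The 594 loci at 2 or more had a polysome median of 0.54, with 130 (21.9%) at least 2-fold higher. In each of these 4 groups most loci were less than 2-fold apart on polysomes.

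The loci set apart on polysomes are given next by their total RNA ratios, beside those of all tested loci, whose median was 0.62. The 701 higher loci had a median total log2 ratio of 1.27. Of them 669 (95.4%) were above 0 in total RNA, but so were 84.8% of all tested loci, so that sign says little about them. The 237 lower loci had a median total log2 ratio of -0.54, and 163 (68.8%) were below 0, where 15.1% of all tested loci were. Within 0.5 (log2) of no difference in total RNA lay 94 of the 701 (13.4%), 77 of the 237 (32.5%) and 36.9% of all tested loci. The share of the lower loci was thus near that of all loci. Of the 40 loci at least 4-fold higher on polysomes with their own coordinates and no value of 0, 30 were at least 2-fold higher in total RNA, as 26.3% of all tested loci were, and 5 were below 0 there. Of the 14 such loci at least 4-fold lower, 10 were at least 2-fold lower in total RNA, as 1.91% of all tested loci were, and 1 was above 0.

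**Figure D5:**
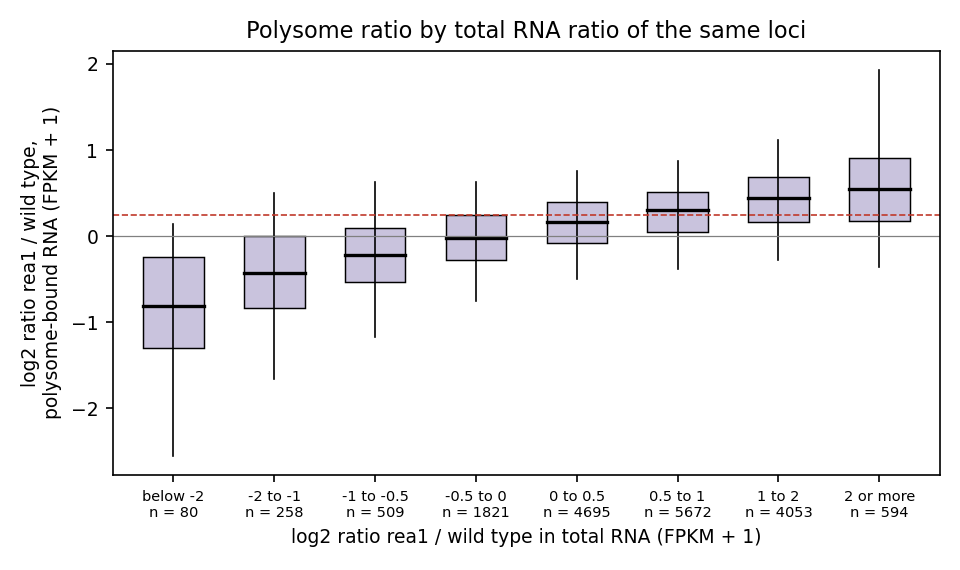
Polysome log2 ratio of the tested loci (vertical) grouped by the log2 ratio of the same loci in total RNA (horizontal): the thick line is the median, the box the middle 50% and the thin line the central 90% of loci, not an error, and the red dashed line the median of all tested loci. The medians climb from -0.81 to 0.54 while the total RNA ratios run from below -2 to 2 or more.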

How the data were processed

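RNA was measured in 4 libraries of maize endosperm, 1 for each genotype and RNA fraction. The values the authors deposited are FPKM per locus, per the file headers. Their tools and build were Bowtie 0.12.2 and B73 RefGen_v3, per the submitters' processing notes. Not given in the sources used here are the FPKM program, the annotation, read totals and any pooling of replicates. A gene table of another build was not used.

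Each file held 29642 loci with 28825 distinct coordinates, and 1595 entries shared theirs. Counting starts from 0 made the length of 48 of 73 organelle loci divisible by 3, against 16 when counted from 1, so the files were taken to count from 0. Ratios were log2(FPKM + 1), loci needed a mean of at least 1 FPKM over the 4 libraries, and no test was run. Named loci had their own coordinates and were the 6 highest and 6 lowest polysome ratios (mean of at least 5 FPKM, above 0 in both), the 4 largest gains and losses of FPKM, the 3 highest levels each way among loci listed at 0 in only 1 polysome library, and the 3 highest and lowest ratios at 100 FPKM or more in total RNA. Other loci, the length classes, windows, flanks, lists of 20 and bins of the total ratio were chosen after the values were seen. The members and lists were chosen with earlier results of these data known. Alternatives were other pseudocounts, filters and scalings. The code for counts and scalings was checked on simulated data with 4-fold changes set at loci averaging 5 FPKM or more on polysomes. That check says nothing on how many of the counted loci truly differ. Python 3.11.15, numpy 2.4.6, pandas 2.3.3 and matplotlib 3.10.9 were used.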

Additional observations from a re-analysis of the deposited data

Results flagged for a closer look

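Some loci differed between the genotypes in opposite directions in the RNA fractions. With 1 library in each group, none of these differences was tested. The locus chr3:218853868-218854053 had a log2 ratio of -2.71 in polysome-bound and 2.45 in total RNA. The locus chr6:44541825-44542774 had 0.15 in polysome-bound and -0.97 in total RNA, and chr6:40050689-40052652 had 0.90 and -0.27. At 2-fold or more in each fraction, 6 loci were higher in rea1 on polysomes and lower in rea1 in total RNA. Of these, 3 were under 600 bp and 2 were listed at 0 in wild-type polysome-bound RNA. These were 0.856% of the 701 higher loci, where 1.91% of all tested loci were 2-fold or more lower in total RNA. Another 16 loci were lower on polysomes and higher in total RNA by as much, of which 4 were under 600 bp and 5 were listed at 0 in rea1 polysome-bound RNA. They were 6.75% of the 237 lower loci, where 26.3% of all tested loci were 2-fold or more higher in total RNA. Both counts thus lie below the share over all loci, and total RNA ratios were shifted upwards as a whole (median 0.62).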

How the results depend on the processing

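The counts of higher and lower loci (701 and 237) were 1385 and 508 with a pseudocount of 0.1, 248 and 90 with 5, and 387 and 101 for loci averaging 10 FPKM or more, where fewer loci were counted. They were 317 and 447 with median-of-ratios scaling, 318 and 441 with a trimmed mean, and 254 and 546 with equal sums without the 50 most abundant loci. The median log2 ratio was 0.14 with a pseudocount of 5, 0.080 with no filter, 0.37 at a mean of at least 10 FPKM, 0 and 0.0024 with the first 2 scalings and -0.066 with equal sums. By rising abundance in total RNA, the class medians were -0.30, -0.051, 0.067, 0.13 and -0.15 with median-of-ratios scaling, -0.30, -0.048, 0.070, 0.14 and -0.15 with the trimmed mean, and -0.35, -0.11, -0.011, 0.047 and -0.24 with equal sums, since each scaling lowers all rea1 values. The share difference of -14.96 percentage points was -10.5 for the 10 most abundant loci. A pseudocount cannot turn a direction, and the 3 scalings all lower rea1, so among the named loci only the 10 higher ones above 0 in both libraries could turn. Of those 30 values 3 did, all at chr6:44541825-44542774 (-0.16, -0.16 and -0.25). Counts stayed within 1.5 times for loci with their own coordinates, above 0 in both polysome libraries, with no filter, or with a polysome mean of at least 1 FPKM. No paired analysis was possible because each group had 1 library. Depth is unknown, so values of low and short loci carry a counting error that cannot be given.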
